A study of Oryza sativa Japonica Group with 8 samples.

Results

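Milk grains were set against flag leaves sampled after flowering, at 30428 loci of rice. These are the loci of at least 300 bp that reached 1 FPKM in either library, out of 41805 loci in the table and 38124 of that length. FPKM is a read count scaled to transcript length and to the mapped reads of the library. How length entered these values is not stated, and the lowest value above 0 in milk grains was 3459 FPKM at the shortest loci (101 bp) but 0.0454 FPKM at loci just over 1000 bp. Levels of short loci are therefore not on one scale with those of long loci, which bears on any order of loci by level. The plants were cultivated japonica rice (Oryza sativa) grown in a greenhouse, and the labels give no cultivar, mutation or treatment. The leaf library pooled flag leaves of several stages after the flowering day, and the grain library held immature grains with fluid contents. Polyadenylated RNA was sequenced with the strand kept, and the study has 8 libraries, 1 for each group. Each side of the comparison therefore has 1 library: no difference here has a replicate check, and no test was run or p-value computed. The other 6 libraries, named below where they are used, are flower buds, flowers, flag leaves and roots before flowering, roots sampled after flowering, and mature seeds. The library labelled roots sampled after flowering goes against its label. Loci typical of leaves, as defined below, had a median of 62.8 FPKM in it. Loci typical of roots had 1.66 FPKM in it, against 75.1 FPKM in roots before flowering, where they were chosen.

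In a filling cereal grain, the endosperm takes up sugar and amino acids and lays them down as starch and storage proteins, while the embryo and the outer layers develop beside it. Plant biologists call such an organ a sink. The flag leaf, the last leaf below the panicle, is a main source: its chloroplasts fix carbon, and its sugar and, as it ages, its nitrogen move to the grain. The table pairs its loci with no gene names, and none of its identifiers was found in the reference table used, so no role is given to any locus here. Positions are on the MSU rice genome annotation, Release 7, and no exon structure or sequence of the loci was used here.

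Most compared loci were less than 4-fold apart between grains and leaves, with a larger tail on the grain side. Smaller differences were common: at a 2-fold limit, 9173 loci were higher in grains and 7858 in leaves. Of the 30428 loci, 21191 reached 1 FPKM in both libraries, 5834 in grains only and 3403 in leaves only. At least 4-fold higher in milk grains were 4784 loci (15.7%), and at least 4-fold higher in leaves were 3321 (10.9%). The other 22323 loci (73.4%) were closer than that. Ratios are log2 of (FPKM + 1) in grains over (FPKM + 1) in leaves, which understates differences at low values. Their median was 0.03, and the middle 50% of loci lay between -1.04 and 1.28. The grain side also held more of the extreme ratios: 1372 loci were at least 16-fold higher in grains against 681 in leaves, and 114 against 20 at 256-fold. The 100 loci just inside the 4-fold limit reached an absolute log2 ratio of 2.02 and had a median of 9.39 FPKM in the higher library. The 100 just outside went down to 1.98, with a median of 7.37 FPKM. In a bulk library, fewer cells of a type and less RNA per cell cannot be told apart.

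Grain-higher loci outnumbered leaf-higher loci at all levels except between 100 and 1000 FPKM. Among 11919 loci whose higher value lay between 1 and 10 FPKM, 13.6% were at least 4-fold higher in grains and 6.06% in leaves. For the 14158 loci between 10 and 100 FPKM these shares were 16.7% and 11.4%. Between 100 and 1000 FPKM the order was the other way, with 17.2% of 3950 loci higher in grains and 22% higher in leaves. Among the 401 loci of 1000 FPKM or more, 31.4% were higher in grains and 28.4% in leaves. The pseudocount of 1 shrinks ratios at low levels, and the lowest loci cannot pass 4-fold at all. A larger share of called loci at high levels therefore follows in part from the formula. By the lowest values above 0, the leaf library was the deeper one. The value of 1 read, read off at the shortest loci (101 bp), was 3459 FPKM in grains and 2362 FPKM in leaves on the plus strand, a depth ratio of 1.46. On the minus strand these values were 3723 and 2590 FPKM, a ratio of 1.44. At loci just over 300 bp the lowest value above 0 was 0.327 FPKM in grains and 0.205 FPKM in leaves, so the 1 FPKM limit rests on few reads at such lengths. Just over 1000 bp these values were 0.0454 and 0.0386 FPKM, a smaller gap, so the depth ratio depends on the lengths used. The parts of depth and of the pseudocount in the low-level counts were not tested.

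**Figure D1:**
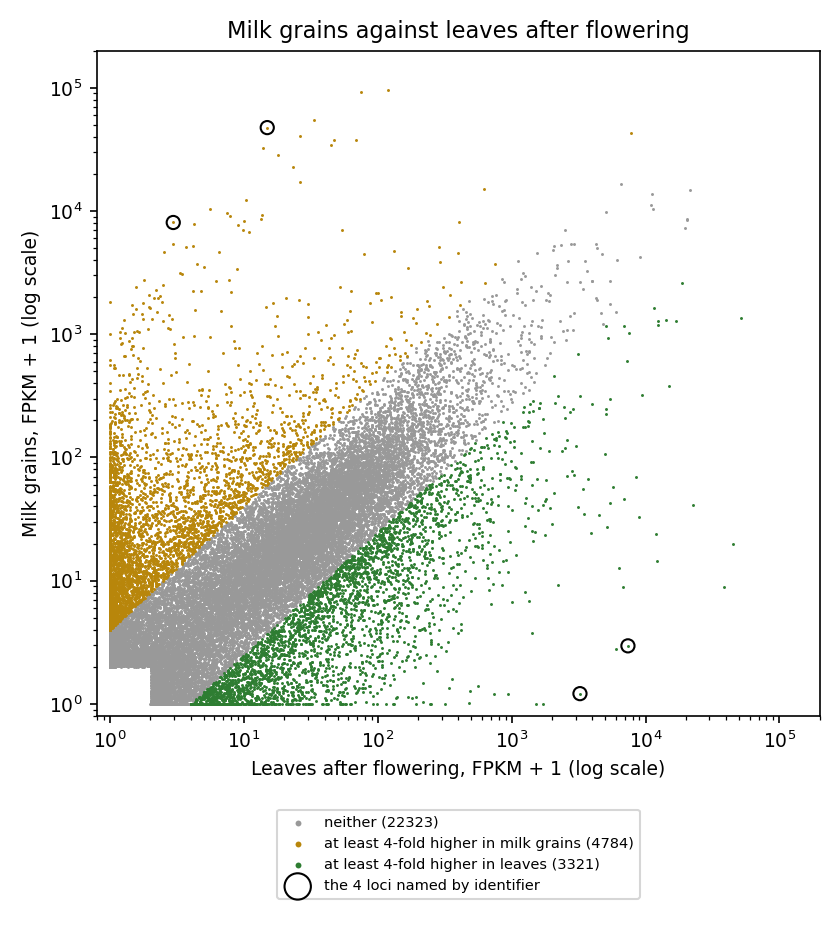
Each point is 1 of the 30428 compared loci, with FPKM + 1 in leaves after flowering on the horizontal axis and in milk grains on the vertical axis, both log scales. The 4784 grain-higher loci lie above the 22323 others, the 3321 leaf-higher loci below, and circles mark the 4 loci named by identifier.

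Ratios were ranked among the 17508 loci of 500 bp or longer whose level exceeded 0 on both sides and came to 10 FPKM or more on one. The 2 largest belonged to loci that were also abundant in mature seeds. M_XLOC_028493 lies on the minus strand of chromosome 5 (24576897 to 24577736) and measured 47562 FPKM in milk grains and 13.9 FPKM in leaves after flowering, a log2 ratio of 11.64. Its level was 27868 FPKM in mature seeds, 20.1 in leaves before flowering, 2.19 in roots before flowering, 0.715 in flower buds, 0.568 in flowers and 0 in roots sampled after flowering. M_XLOC_020933, on the minus strand of chromosome 3 (28021862 to 28022837), measured 8073 and 1.96 FPKM, a log2 ratio of 11.41. Its level was 1519 FPKM in mature seeds and at most 4.95 FPKM, in leaves before flowering, in any other library. Both loci were thus high in the 2 seed libraries and at no more than 20.1 FPKM in the rest.

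The 2 smallest ratios of this ranking belonged to loci that were unlike each other in mature seeds. P_XLOC_031375, on the plus strand of chromosome 6 (27966503 to 27967056), measured 0.211 FPKM in milk grains and 3232 FPKM in leaves after flowering, a log2 ratio of -11.38. It stood at 11128 FPKM in roots sampled after flowering, 2010 in leaves before flowering and 1386 in roots before flowering, and at most at 0.470 FPKM in buds, flowers and mature seeds. P_XLOC_035539, on the plus strand of chromosome 8 (1246065 to 1247034), measured 1.96 FPKM in milk grains and 7380 FPKM in leaves, a log2 ratio of -11.28. In contrast to the first, it was at 3761 FPKM in mature seeds and at 944 to 22292 FPKM in every other library, so milk grains were the single low library.

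The most abundant loci of grains made up more of the FPKM sum of compared loci than those of leaves. Such sums are not shares of reads. They also leave out loci under 300 bp, which held 27.4% of the whole sum in grains and 43.2% in leaves. Of the summed FPKM of compared loci, the top 10 accounted for 21.6% in grains and 13.2% in leaves, and the top 100 for 43.9% and 35.7%. Grain-higher loci together made up 50.3% of the grain sum and 1.69% of the leaf sum. Leaf-higher loci made up 41.97% of the leaf sum and 2.45% of the grain sum. Of the 100 highest loci of each library, 57 were at least 4-fold higher there and 1 was at least 4-fold lower, in grains and in leaves alike. The lists of 100 shared 31 loci.

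All 10 of the highest grain loci were at least 4-fold higher in grains, but they fell into several patterns over the other libraries. The loci named from here on by position were chosen after their values were seen. The highest lies on the minus strand of chromosome 3 (31729099 to 31730225) and reached 95428 FPKM in milk grains, 183916 in mature seeds and 119 in leaves after flowering. The next, from the plus strand of chromosome 7 (5741849 to 5742542), reached 92906, 138241 and 73.6 FPKM in the same libraries. Both were higher still in mature seeds. The third, from the plus strand of chromosome 8 (5208385 to 5209569), had 55116 FPKM in milk grains but 145 FPKM in mature seeds, with 618 FPKM in flowers and 32.4 in leaves after flowering. A locus of chromosome 6 (28639359 to 28641690, minus) had 43080 FPKM in grains and 7758 in leaves, and at no less than 5594 FPKM in any library, so it was high everywhere and highest in grains. A locus of chromosome 3 (27134164 to 27138727, minus) had 37378 FPKM in grains and 67.5 in leaves after flowering, yet at 7380 FPKM in leaves before flowering and 827 in mature seeds.

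A leaf excess of at least 4-fold was seen at 6 of the 10 highest leaf loci, and their levels elsewhere differed widely. The highest, from the plus strand of chromosome 4 (15926564 to 15926920), had 51348 FPKM in leaves after flowering, 10690 in leaves before flowering, 1364 in milk grains and 4013 in mature seeds, and at most at 9.79 FPKM in buds, flowers and roots before flowering. The next, from the plus strand of chromosome 3 (14567424 to 14573315), had 45050 FPKM in leaves after flowering, 42913 in leaves before flowering, 18.8 in milk grains and 1.26 in mature seeds, and stayed at or below 16.2 FPKM in buds, flowers and roots before flowering. The third, from the minus strand of chromosome 2 (4871484 to 4871905), had 38260 FPKM in leaves after flowering and 7.97 in milk grains, a log2 ratio of -12.06 at 422 bp, under the length of the ranking above. Flower buds had 22123 FPKM and roots before flowering 21145 FPKM, so the seed libraries were its low libraries. A further top leaf locus, from the plus strand of chromosome 12 (27060228 to 27061204), had 21450 FPKM in leaves and 14797 in grains and differed by less than 2-fold.

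Abundant loci of the grain still gave low values in the leaf. The 57 grain loci taken here had at least 1000 FPKM in milk grains and no more than 1% of that level in buds, flowers and roots before flowering. The leaf value played no part in their choice, and 259 loci in all reached 1000 FPKM. In 56 of the 57 the value in leaves after flowering was at most 1% of the grain level, with a median of 0.0756% and a highest of 0.760%. The exception was the chromosome 4 locus that leads the leaf list. Over the 56 loci the median was 3.28 FPKM in leaves after flowering and 4.96 FPKM in leaves before flowering, and 44 of them were higher in the latter. Over the 56 loci the leaf-like library labelled as roots had a median of 0 FPKM. It was listed at 0 at 45 of the 56 loci. By the value of 1 read at the shortest loci, it was 2.70 times as deep as leaves after flowering on the minus strand. Leaves after flowering were listed at 0 at 1 of them. A listed 0 is not read as absence here. A locus of chromosome 1 (5478339 to 5479880, plus) had 20385 FPKM in leaves after flowering but was listed at 0 in roots sampled after flowering, and whether that 0 is a failed estimate was not tested.

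Across the 56 loci the leaf values followed the seed levels. Leaves after flowering correlated with milk grains at 0.87, with mature seeds at 0.82 and with the sum of both at 0.91 (Spearman, across loci of the same libraries, which are not independent replicates). Leaves before flowering gave 0.90, 0.84 and 0.93. Whether reads carried over from seed libraries make up these leaf values was not tested. The size of each ratio rests on these low leaf values.

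**Figure D2:**
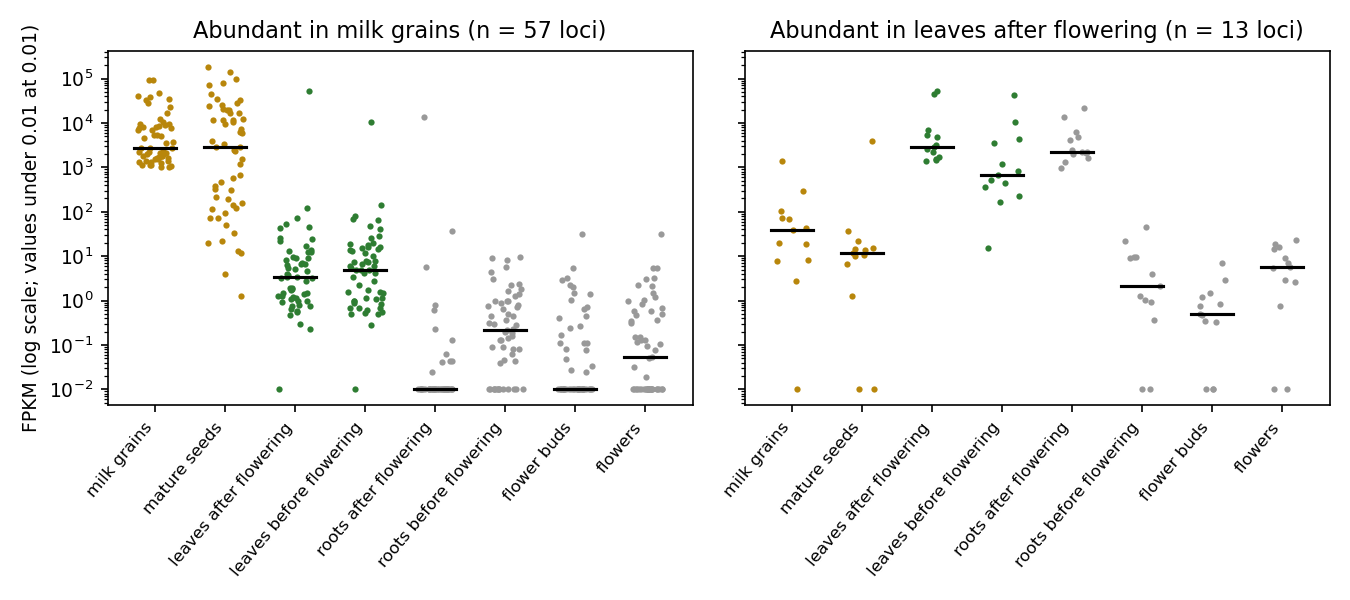
FPKM on a log scale in each of the 8 libraries, for loci abundant in milk grains (57, left) and in leaves after flowering (13, right), each point a locus and each bar the median, with values under 0.01 drawn at 0.01. The grain loci sit at a median of 3.31 FPKM in leaves after flowering and 4.98 in leaves before flowering against 0 in roots sampled after flowering, and the leaf loci at 38.6 FPKM in milk grains.

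Fewer leaf loci met the same rule. There were 13 of the 224 loci at 1000 FPKM or more in leaves after flowering that stayed at or under 1% of that level in buds, flowers and roots before flowering. Their values in milk grains had a median of 1.37% of the leaf level, from 0% to 5.53%. In mature seeds the median was 0.501%. In roots sampled after flowering it was 76.1%, and in leaves before flowering 30.5%. Grains thus held a larger share of the level of these leaf loci than leaves held of the level of the grain loci.

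The labels were checked with sets of loci that typify other organs, chosen without the 2 libraries compared and without roots sampled after flowering. A set member had at least 10 FPKM in its organ and stood at least 4-fold above every other organ. Leaf loci, chosen in leaves before flowering, were higher in leaves after flowering: 566 of 834 by at least 4-fold (67.9%), against 2 higher in grains. Seed loci, chosen in mature seeds, were higher in grains, with 672 of 1855 (36.2%) past 4-fold and 38 (2.05%) the other way. For comparison, 12.5% of all loci of at least 300 bp were grain-higher and 8.71% leaf-higher. The median log2 ratio was -2.67 over the 822 leaf loci compared and 1.47 over the 1614 seed loci compared. Seed loci had a median of 15.5 FPKM in milk grains, against 85.1 FPKM in mature seeds and 2.19 FPKM in leaves after flowering. The mature seed value was used to choose them, so a lower median in another library follows in part from that choice.

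Loci of inflorescences also leaned to the grain. Of 769 loci chosen in flower buds and flowers, 292 (38.0%) were at least 4-fold higher in milk grains and 6 (0.78%) in leaves. Their levels were low on both sides, at medians of 1.94 FPKM in grains and 0.234 FPKM in leaves after flowering. The median was 46.2 FPKM in flower buds, a library used to choose them. Of the set, 447 loci were high enough to be compared. Root loci leaned to the leaf, with 358 of 2108 (17.0%) higher in leaves and 198 (9.39%) higher in grains. Their medians of 1.54 FPKM in grains and 1.79 FPKM in leaves were close. The part of low levels and depth in these last counts was not tested.

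**Figure D3:**
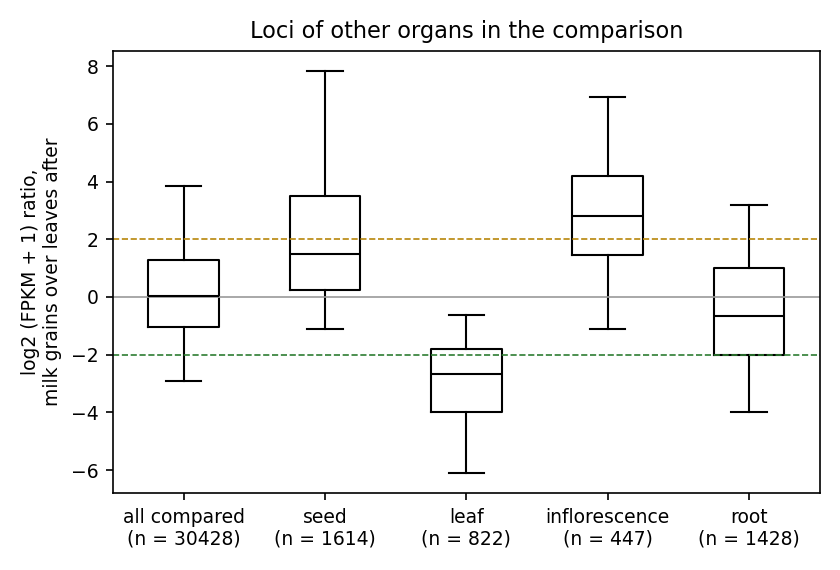
Log2 ratios of milk grains over leaves after flowering for all compared loci and for the compared members of 4 organ sets, as boxes from the lower to the upper quartile with the median and whiskers to the 5th and 95th percentile; dashed lines mark 4-fold. The leaf set lies below 0 with a median of -2.67, and the seed and inflorescence sets above it with medians of 1.47 and 2.81. The inflorescence box covers only the 447 of 769 members that reached 1 FPKM in either library. Over the whole set the medians were 1.94 FPKM in grains and 0.234 FPKM in leaves. Members thus passed the filter more easily through the grain value, and 2.81 is not the median of the whole set.

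Grain-higher loci were not seed loci alone. Their median was 18.5 FPKM in milk grains and 0.358 FPKM in leaves after flowering. Over the other libraries it was 7.74 FPKM in flower buds, 7.52 in flowers, 4.07 in mature seeds, 3.13 in roots before flowering, 0.683 in leaves before flowering and 0.309 in roots sampled after flowering. The medians of milk grains and leaves after flowering follow from the choice of these loci. Among the libraries not used in that choice, leaves before flowering and the leaf-like root library were lowest. Medians over all compared loci were not computed. Of the 4784 loci, 2283 (47.7%) had their highest value in milk grains, 900 (18.8%) in mature seeds, 703 (14.7%) in flower buds, 465 (9.72%) in roots before flowering and 410 (8.57%) in flowers. A highest value in milk grains is favoured by the choice of the loci. Inflorescence libraries reached 1 FPKM at most of them, with 3613 loci (75.5%) in flower buds and 3660 (76.5%) in flowers. The same shares over all compared loci were not computed, so no excess is read from these counts.

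Leaf-higher loci had medians of 39.0 FPKM in leaves after flowering and 2.75 FPKM in milk grains. Elsewhere the medians were 33.7 FPKM in roots sampled after flowering, 19.4 in leaves before flowering, 7.86 in roots before flowering, 4.48 in flowers, 3.38 in flower buds and 1.36 in mature seeds. Their highest value lay in leaves after flowering at 1273 of 3321 loci (38.3%), which the choice of the loci favours. It lay in roots sampled after flowering at 743 (22.4%), in leaves before flowering at 586 (17.6%) and in roots before flowering at 559 (16.8%). These shares over all compared loci were not computed. Of the 3321 loci, 3014 (90.8%) reached 1 FPKM in leaves before flowering and 2133 (64.2%) in milk grains. Most were thus lower in the grain rather than under 1 FPKM there. Of all 30428 compared loci, 21191 reached 1 FPKM in both libraries, 5834 in grains only and 3403 in leaves only. Levels under 1 FPKM in grains were thus more common among leaf-higher loci than among all compared loci, which follows in part from their choice.

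A second seed and leaf pair, mature seeds against leaves before flowering, shares no library with the first. As a share of the first lists, leaf-higher loci carried over to it more fully than grain-higher loci. Of the 3321 leaf-higher loci, 1875 (56.5%, exact binomial interval over loci 54.8% to 58.2%) were also at least 4-fold higher in leaves before flowering than in mature seeds, where 17.6% of all compared loci were. Of the 4784 grain-higher loci, 1620 (33.9%, 32.5% to 35.2%) were also at least 4-fold higher in mature seeds, against 12.6% of all compared loci. As shares of the second pair's own lists, these are 35.0% of 5353 and 42.1% of 3845. The intervals cover counting error over loci, which are not independent replicates. Of the remaining grain-higher loci, 179 (3.74%) were at least 4-fold the other way in the second pair and 2985 (62.4%) were neither. Of the leaf-higher loci, 78 (2.35%) were the other way and 1368 (41.2%) neither. The median log2 ratio in the second pair was 0.99 over grain-higher loci and -2.35 over leaf-higher loci. Both pairs set seed against leaf; the seed stage and the leaf stage both differ between the pairs, and their parts cannot be told apart.

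The loci that carried over are described by their levels, of which those in mature seeds and leaves before flowering were used to choose them. The 1620 grain-higher loci had medians of 31.4 FPKM in milk grains, 36.4 in mature seeds, 0.482 in leaves after flowering and 0.688 in leaves before flowering. The 1875 leaf-higher loci that carried over had medians of 61.9 FPKM in leaves after flowering, 42.1 in leaves before flowering, 4.46 in milk grains and 1.09 in mature seeds.

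**Figure D4:**
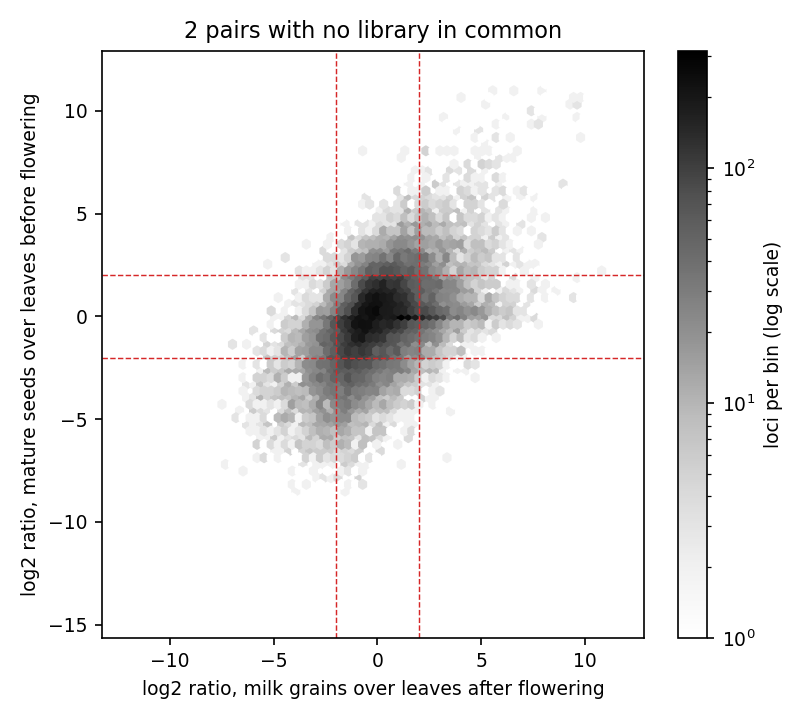
Log2 ratio of milk grains over leaves after flowering (horizontal) against that of mature seeds over leaves before flowering (vertical), with shading for the number of loci per bin on a log scale and dashed lines at 4-fold. The upper right corner holds the 1620 loci higher in both seed libraries and the lower left the 1875 higher in both leaf libraries.

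Grain-higher and leaf-higher loci lay close together in some regions. Counts were made in 1861 windows of 200 kb, which held a median of 16 compared loci. At least 5 grain-higher loci lay in 312 windows, at least 5 leaf-higher loci in 150, and at least 5 of each in 24. Of all compared loci 15.7% were grain-higher and 10.9% leaf-higher. How many such windows these shares alone would give was not computed, so the counts do not show grouping by themselves. Among windows of 10 or more compared loci, over 50% of the loci were grain-higher in 12 and leaf-higher in 11.

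The window with the most grain-higher loci, on chromosome 1, held 13 of 30, spanning 33409653 to 33590331, with log2 ratios from 2.60 to 6.61 and 2 leaf-higher loci among them. Of the 13, 6 overlapped another locus on the same strand, so they are not all separate transcription units. Their levels ran from 5.07 to 1041 FPKM in milk grains, and 12 of the 13 reached 1 FPKM in mature seeds. Buds and flowers reached 1 FPKM at 9 of them each.

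A tighter group on chromosome 10 stood high in milk grains and low in nearly all other libraries. Its window held 11 grain-higher loci of 21, in a span of 51.5 kb from 9941278 to 9992760. Of the 12 compared minus-strand loci in that span, 10 were grain-higher. These 10 ran from 13.4 to 1112 FPKM in milk grains, with a median of 109 FPKM. In leaves after flowering 7 of the 10 were listed at 0, and the highest stood at 1.80 FPKM. In mature seeds 7 of the 10 were under 1 FPKM, although 1 (9977558 to 9978064) was at 119 FPKM there and at 999.97 FPKM in milk grains. The group's highest locus (9991961 to 9992760) was at 1112 FPKM in milk grains and 1.25 in mature seeds. Flower buds stood at no more than 3.15 FPKM, flowers 10.6, leaves before flowering 1.29, roots before flowering 5.58 and roots sampled after flowering 0.0276 at any of the 10. One of the 2 minus-strand loci between them that were not called (9963958 to 9964501) was at 72.8 FPKM in flowers and 1.61 in milk grains.

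The window with the most leaf-higher loci, at the start of chromosome 1, held 24 of 42, spanning 804084 to 997262, on both strands (12 each). Log2 ratios ran from -5.61 to -2.10, and 14 of the 24 were also at least 4-fold higher in leaves before flowering than in mature seeds. Their median was 31.4 FPKM in leaves after flowering, 31.1 in roots sampled after flowering and 6.96 in leaves before flowering. It was 0.781 FPKM in milk grains and lower still in mature seeds, at 0.252 FPKM. Among them lay 1 grain-higher locus (910556 to 911093, minus strand), at 39.2 FPKM in milk grains and 0.257 in leaves after flowering.

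On chromosome 4, 15 of 24 loci were leaf-higher and none of the 24 was grain-higher, spanning 8436855 to 8534233. Their median was 30.9 FPKM in leaves after flowering, 13.3 in leaves before flowering and 2.08 in milk grains, and 11 of the 15 carried over to the second pair. The highest (8528512 to 8533183, plus strand) was at 553 FPKM in leaves and 18.2 in grains. On chromosome 11, 10 of 13 loci were leaf-higher and 1 grain-higher, spanning 24421244 to 24570329, with a highest level of 612 FPKM in leaves and 13.6 FPKM in grains. In each of these 3 leaf-higher groups, 3 loci overlapped another on the same strand.

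**Figure D5:**
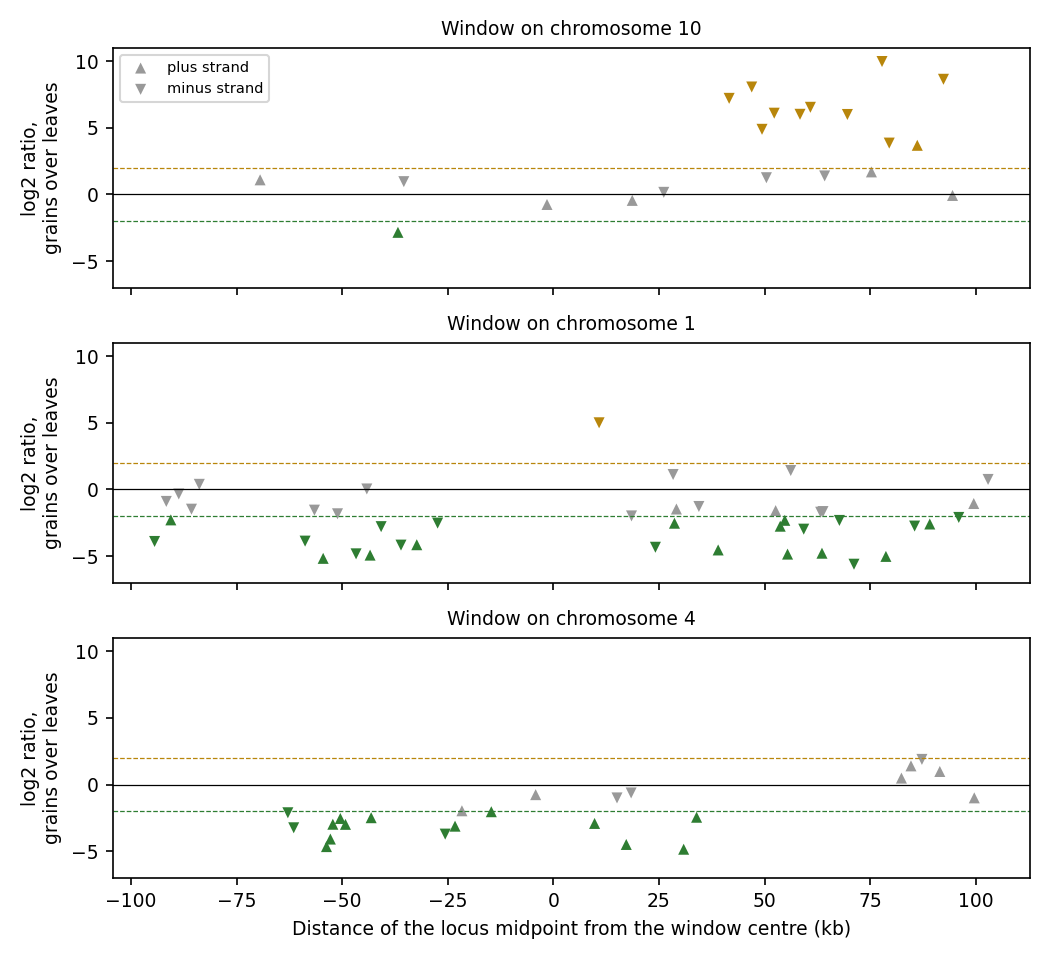
Log2 ratio of milk grains over leaves after flowering for each compared locus in 3 windows of 200 kb, by distance from the window centre, with triangles up for the plus and down for the minus strand and dashed lines at 4-fold. The 10 grain-higher minus-strand loci on chromosome 10 crowd one side of their window, while 24 of 42 loci on chromosome 1 and 15 of 24 on chromosome 4 lie below the lower line.

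Since the libraries kept the strand, loci on opposite strands that share bases could be read apart. There were 3522 such pairs among compared loci. Leaf-higher loci were in a pair more often, at 900 of 3321 (27.1%), than grain-higher loci, at 672 of 4784 (14.0%), against 19.9% of all compared loci. Both partners were leaf-higher in 152 pairs and grain-higher in 66, and the partners went opposite ways in another 66. In 1 such pair on chromosome 8, the plus-strand locus (17843998 to 17857834) was at 140 FPKM in grains and 33.5 in leaves, and the minus-strand locus inside it (17855514 to 17857688) at 16.3 FPKM in grains and 181 in leaves. In 1 on chromosome 9, the plus-strand locus (21681127 to 21697015) was at 185 FPKM in grains and 7.52 in leaves, and the minus-strand locus inside it (21685903 to 21688767) at 8.93 and 117 FPKM. In pairs with both partners leaf-higher, the lower partner had a median of 15.6% of the higher partner's leaf level, and it was under 1% in 14. How many reads of a locus come from the strand opposite was not tested.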

How the data were processed

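FPKM values for 8 libraries were deposited by the authors as 1 table of loci. Per the submitters' processing notes the tools were TopHat, Cufflinks and Cuffdiff (versions not given in the sources used here). Locus positions are on MSU Release 7, per the file headers. The value of 1 read at loci of 101 bp is larger on the minus strand, so a read does not weigh the same on both strands. Short loci (under 300 bp), which held 27.4% of the FPKM sum in milk grains and 43.2% in leaves, were left out.

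From these values log2 ratios with a pseudocount of 1 were computed for loci at 1 FPKM or more in either library, and loci 4-fold apart were counted. With 1 library per group no test was possible. Of 39387 reference genes on another assembly, 0 matched an identifier. Lacking names, 2 loci from each end of the ranked ratios are given by identifier (500 bp or longer, above 0 on both sides, 10 FPKM or more on one). Organ sets, windows of 200 kb and strand pairs were counted as described in the results. The members and lists were chosen with earlier results of these data known. Counting was tested on simulated data. Python 3.11.15, pandas 2.3.3 and SciPy 1.17.1 were used.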

Additional observations from a re-analysis of the deposited data

Results flagged for a closer look

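Some loci went opposite ways in the 2 pairs of seed and leaf libraries, which share no library; each pair has 1 library a side, and the difference was not tested. Of grain-higher loci, 179 (3.74%) were at least 4-fold lower in mature seeds than in leaves before flowering, against 17.6% of all compared loci. The seed and leaf levels given for these loci were used to choose them. Their medians were 40.3 FPKM in milk grains and 4.36 in leaves after flowering, then 1.04 in mature seeds and 16.2 in leaves before flowering, with 26.2 in flower buds and 28.2 in flowers. The locus on chromosome 3 at 37378 FPKM in milk grains, described above, is one of them, with a log2 ratio of 9.09 in the first pair and -3.16 in the second.

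Of leaf-higher loci, 78 (2.35%) exceeded leaves before flowering by 4-fold or more in mature seeds, against 12.6% of all compared loci. Here too the seed and leaf levels were used to choose the loci. Their medians were 31.3 FPKM in leaves after flowering and 2.43 in milk grains, then 77.8 in mature seeds and 6.61 in leaves before flowering.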

How the results depend on the processing

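Counts moved past 1.5 times only with a smaller pseudocount or another fold limit, among the settings run. With a pseudocount of 0.1, leaf-higher loci numbered 5094, and 3191 grain-higher and 3266 leaf-higher loci carried over to the second pair. Grain-higher loci rose from 4784 to 7145 with it, which is just short of 1.5 times. A 2-fold limit gave 9173 grain-higher and 7858 leaf-higher loci, and a 16-fold limit 1372 and 681. The other settings were a filter of 5 FPKM or none, loci of any length or of 500 bp or more, equal sums, and median-ratio scaling over both strands or on each. They gave 4166 to 5192 grain-higher and 3015 to 4189 leaf-higher loci. Dropping the filter could not change a count, since with a pseudocount of 1 a locus under 1 FPKM in both libraries cannot reach 4-fold. Equal sums, taken over loci of 300 bp or more, moved the median log2 ratio by -0.19, to -0.16, and the grain-higher share of called loci from 59% to 53.7%. No paired analysis was possible because each group has 1 library, and no library could be left out. Depth limits the low values most: a locus listed at 0 is not shown to be silent.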

Other observations

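Loci at 10 FPKM or more in 1 of the compared libraries and under 1 FPKM in every other library were few. Milk grains had 88 such loci among the 15441 at 10 FPKM or more. Their median was 26.2 FPKM and their highest 612 FPKM (chromosome 2, 3948762 to 3949211, plus strand). Allowing any level in mature seeds raised this to 290 loci, of which the highest (chromosome 3, 25531723 to 25532158, minus) reached 1819 FPKM in milk grains and 562 in mature seeds. In leaves after flowering the corresponding count was 0 of the 14704 loci at 10 FPKM or more. A leaf locus had to be low in leaves before flowering and in the leaf-like library labelled as roots. For a grain locus, mature seeds were the only like library, so the counts are not on equal terms. The leaf count was 144 when any level in leaves before flowering and in roots sampled after flowering was allowed, with a median of 20.0 FPKM. The highest of these (chromosome 1, 42961635 to 42962009, minus) reached 1521 FPKM in leaves after flowering, 848 in leaves before flowering and 2277 in roots sampled after flowering, and was listed at 0 in the other 5 libraries.

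Between the 2 strands the comparison differed little. The median log2 ratio was 0.06 over 15089 plus-strand loci and -0.01 over 15339 minus-strand loci. Grain-higher loci made up 15.2% and 16.2%, and leaf-higher loci 11.1% and 10.7%. Over the 12 chromosomes, grain-higher loci made up 14.7% (chromosome 6) to 17.1% (chromosome 10) and leaf-higher loci 8.53% (chromosome 3) to 13.4% (chromosome 11) of compared loci.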
